A study of Mus musculus with 51 samples.

Results

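The genes described here serve the MHC class I antigen presentation pathway: the heavy chains H2-K1, H2-D1, H2-T23 and H2-Q4, the light chain gene B2m, the peptide loading genes Tap1, Tap2, Tapbp and Erap1, and the regulator gene Nlrc5. They were chosen by name, as the rows whose gene symbol is on that list of 10, in all tumor and cell groups of the series. Of the 10, 6 matched a row among the 40077 genes (B2m, Tap1, Tap2, Tapbp, Erap1 and Nlrc5), and the 4 heavy chains were not analysed here. The results therefore concern the light chain, the loading machinery and the regulator, and give no level for a classical heavy chain.

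MHC class I molecules show peptides from inside a cell to CD8+ T cells. Cytosolic proteins are cut by the proteasome, the TAP1-TAP2 transporter carries the peptides into the endoplasmic reticulum, the aminopeptidase ERAP1 trims them, and tapasin (the product of Tapbp) holds an empty heavy chain with its light chain β2-microglobulin close to the transporter until a peptide fits. Interferon gamma (IFN-γ) acts through its receptor and the kinases JAK1 and JAK2 and is the classical inducer of these genes, and NLRC5 is a transactivator of class I promoters that is itself induced by IFN-γ.

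The study asked how UBA1, the main E1 enzyme that activates ubiquitin, affects tumor growth and immune recognition. RNA-seq libraries numbered 51, of which 35 came from tumors and 16 from cultured cells. B16-BL6 is a mouse melanoma line grown in C57BL/6 mice, and Myc-CaP is a mouse prostate cancer line grown in FVB mice. The hosts were immunocompetent, 6 to 8 weeks old, and received cells under the skin of both flanks, so tumors of a group may share a mouse.

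B16-BL6 tumors carried a nontargeting control sgRNA (3 tumors) or sgUba1 (4 tumors). Myc-CaP tumors carried the control sgRNA (3) or sgUba1 (7), an empty vector (3) or a Uba1 overexpression vector under a CMV promoter (Uba1 OE, 4), or came from mice given vehicle (6) or TAK-243 (5), a small-molecule UBA1 inhibitor given by vein at 25 mg/kg in 2 doses a week. The sgRNA lines were grown out from single cells after CRISPR-Cas9 cutting, and Uba1 was depleted in part, not removed. The 8 groups of cultured Myc-CaP cells had 2 libraries each: the control sgRNA and sgUba1 lines with and without IFN-γ, and untreated cells or cells with TAK-243 (50 nmol/L, 18 hours), IFN-γ (1 ng/mL, 18 hours) or both. The labels do not say whether libraries of a cell group came from separate cultures, so the p-values below measure the spread between these libraries, which may be technical.

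Totals ran from 8652097 to 38032395 counts per library. Uba1 was lower in B16-BL6 sgUba1 tumors (208 to 247 counts scaled to library size, CPM) than in controls (409.5 to 455 CPM), higher in Uba1 OE tumors (631 to 747 CPM) than with empty vector (278 to 310.4 CPM), and lower in sgUba1 cells (269 to 295 CPM) than in control cells (526 to 599.7 CPM). In the Myc-CaP sgUba1 group, tumors 1 to 3 had 197 to 211 CPM of Uba1, but tumors 4 to 7 had 361 to 383 CPM, above the controls at 319.6 to 337 CPM. Member differences of this group are therefore given with and without the 4 tumors labelled sgUba1 that kept Uba1 RNA. Its marker sums, list counts and class I-like rows are given for all its tumors only. RNA does not measure UBA1 protein, so these 4 tumors may still have been depleted of it. The study used independent sgRNAs against Uba1, and the labels do not say which sgRNA or line a tumor carried. Melanocyte markers summed to 9464 to 11578 TPM (counts scaled for transcript length and library size) in B16-BL6 tumors. Prostate epithelial markers summed to 201 to 706 TPM in Myc-CaP tumors and 372 to 665 TPM in the cells. The reference genome carries the H2-b haplotype of C57BL/6, whereas FVB mice and Myc-CaP are H2-q, so levels were not tested between the models.

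Tap1 (chromosome 17, 34187553 to 34197225), Tap2 (chromosome 17, 34203527 to 34216321) and Tapbp (chromosome 17, 33915899 to 33929292) lie in the mouse MHC region, whereas B2m is on chromosome 2 (122147686 to 122153083), Erap1 on chromosome 13 (74639568 to 74693201) and Nlrc5 on chromosome 8 (94434356 to 94527272), all on the plus strand of GRCm38. Tap1 stands head to head with Psmb9, an immunoproteasome subunit gene whose start is 211 bases away on the opposite strand, and the annotated extents of both genes overlap, so reads in the overlap could not be assigned without strand. Sequences before or across the transcription start are shown for 3 members: B2m, which holds a match to 3 of the motifs searched, Tap1, which shares its start region with Psmb9, and Erap1, whose match lies across its start. They come from RefSeq promoter windows on GRCm38.p6 (250 bases before to 50 after the start), which 4 of the 6 members had (these 3 and Tapbp). Capitals mark matches to an interferon-stimulated response element core (GAAA and GAAA with 2 bases between), a cyclic AMP response element core (TGACG) or a CCAAT box (ATTGG), searched on both strands.
B2m, chr2:122147437-122147686, plus strand, ISRE core at -139 to -130, CRE core at -78 to -74 and CCAAT box at -53 to -49 from the start: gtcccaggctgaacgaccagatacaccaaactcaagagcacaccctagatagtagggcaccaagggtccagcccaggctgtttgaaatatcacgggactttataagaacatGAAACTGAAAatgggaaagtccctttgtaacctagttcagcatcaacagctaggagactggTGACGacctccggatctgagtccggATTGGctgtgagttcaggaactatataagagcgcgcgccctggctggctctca
Tap1, chr17:34187306-34187555, plus strand, CCAAT box on the minus strand at -222 to -218 and CRE core at -86 to -82: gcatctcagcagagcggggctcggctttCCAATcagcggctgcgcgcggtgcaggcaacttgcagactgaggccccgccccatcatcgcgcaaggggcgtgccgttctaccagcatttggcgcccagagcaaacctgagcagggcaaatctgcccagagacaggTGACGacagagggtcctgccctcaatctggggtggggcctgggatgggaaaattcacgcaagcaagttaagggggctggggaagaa
Erap1, chr13:74639803-74639862, plus strand, ISRE core on the minus strand from -4 to 5 across the start: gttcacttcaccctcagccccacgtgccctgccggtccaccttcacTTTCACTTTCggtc

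An ISRE core stood in 2 of the 4 windows (B2m and Erap1) and in 3.44% of 32851 promoters of the same length. The CRE core stood in 2 of 4 (B2m, with a second match on the minus strand at 44 to 48, and Tap1) against 20.8% of all promoters, and the CCAAT box in 3 of 4 (B2m, Tap1 and Tapbp) against 37.4%. The GAS core (TTC and GAA with 3 bases between), a motif of IFN-γ-responsive promoters, matched 0 of the 4 windows and 8.30% of all promoters. These matches describe letters in a window and not binding.

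In TPM, which is per transcript length and so allows levels of different genes to be compared, B2m stood highest and Nlrc5 lowest in all 16 groups. The order B2m, Tapbp, Erap1, Tap2, Tap1, Nlrc5 held for the group means of 13 groups, and Tap1 stood above Tap2 in the other 3, both B16-BL6 groups and the Myc-CaP sgUba1 tumors. In those 3 groups the Tap1 and Tap2 means differed by less than their SDs. In B16-BL6 sgUba1 tumors, for example, Tap1 had 12.2 ± 2.48 TPM and Tap2 12.0 ± 1.85 TPM (SD, n = 4). Mean B2m levels ran from 134 ± 0.515 TPM (SD, n = 2) in control sgRNA cells with IFN-γ to 2345 ± 162 TPM (SD, n = 3) in empty vector tumors. Every Myc-CaP tumor group had a higher mean B2m level than every cell group, and the B16-BL6 groups lay between them at 651 ± 269 TPM (SD, n = 3) and 878 ± 118 TPM (SD, n = 4).

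Mean Tapbp levels ran from 16.1 ± 0.510 TPM (SD, n = 2) in control sgRNA cells to 119 ± 16.6 TPM (SD, n = 5) in TAK-243 tumors. Mean Nlrc5 levels ran from 0 in both untreated cell libraries to 7.59 ± 4.30 TPM (SD, n = 7) in Myc-CaP sgUba1 tumors. With the 16 groups ordered by mean TPM, neighbouring groups overlapped in 9 of 15 pairs for B2m and Tapbp, 11 for Nlrc5, 12 for Tap1 and Tap2 and 13 for Erap1, so most steps in these orders lay within the spread. In bulk tumors, fewer cells of a type and less RNA per cell cannot be told apart.

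**Figure D1:**
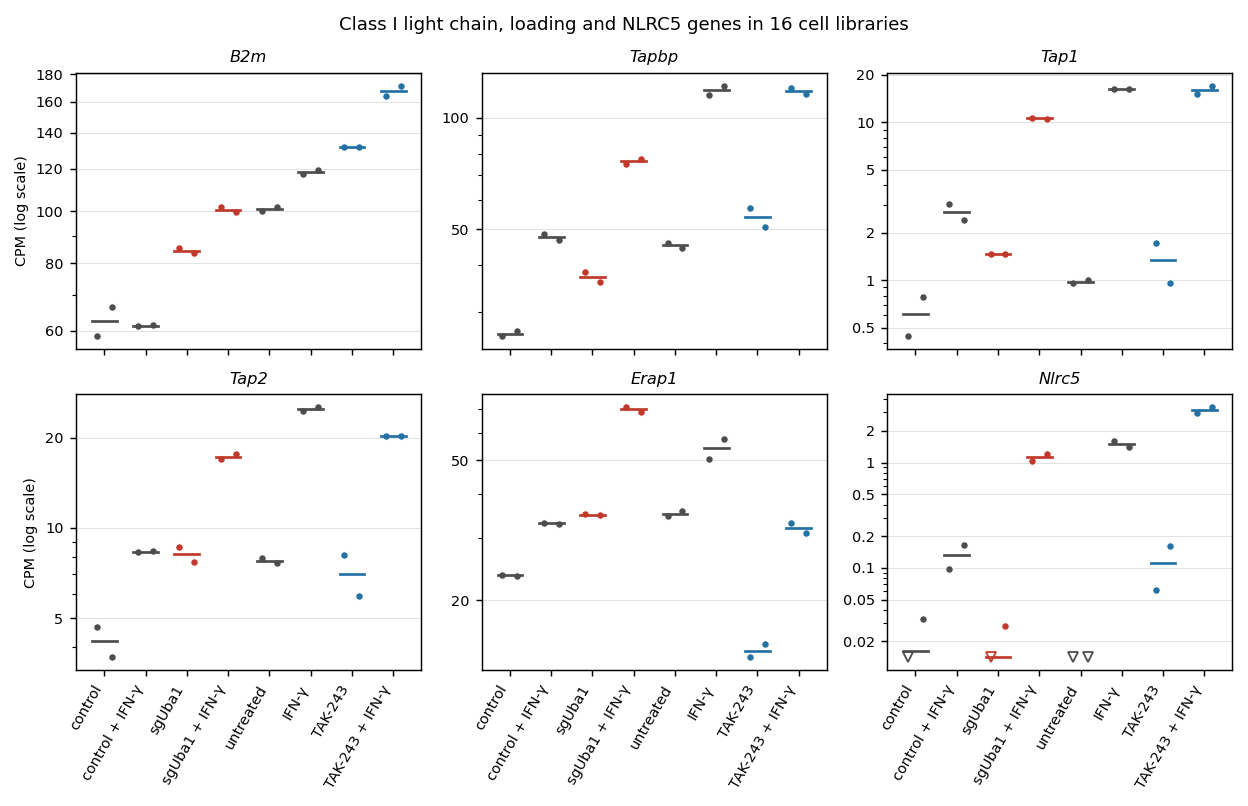
CPM (log scale) of the 6 members in the 16 libraries of cultured Myc-CaP cells. Points are libraries, lines are group means (none where both libraries are at 0) and open triangles at the bottom edge are libraries with 0 counts. Tap1 moved from 0.442 and 0.784 CPM in control sgRNA cells to 10.7 and 10.5 CPM in sgUba1 cells with IFN-γ, and Erap1 was lowest with TAK-243 alone.

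The first question in culture was how IFN-γ alone moved the pathway. In control sgRNA cells the 4 loading genes Tap1, Tap2, Tapbp and Erap1 rose with IFN-γ and B2m did not pass the test. In untreated cells of the TAK-243 experiment all 6 members rose. Members called (adjusted p under 0.05 by the quasi-likelihood test of edgeR, with Benjamini-Hochberg correction over all genes tested) were 4 of 6 in control sgRNA cells, where 3.88% of 15530 genes were called, and 6 of 6 in untreated cells, where 29.0% of 14551 genes were called. The median log2 fold change of the 6 members was 0.93 and 1.54, beside 0.038 and 0.037 over all genes tested. Where groups are said below to stand apart, this describes the libraries only. With so few libraries per group many genes can stand apart without an effect, and the share of all genes that did was not computed.

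Tap1, the transporter chain, had 0.442 and 0.784 CPM in control sgRNA cells and 3.02 and 2.42 CPM with IFN-γ. Both IFN-γ libraries stood above both others, and the log2 fold change was 2.11 ± 0.24 (SE, as for all log2 fold changes below; adjusted p = 0.00163). In untreated cells Tap1 had 0.958 and 0.999 CPM, and 16.2 and 16.3 CPM with IFN-γ. This was a rise of 16.5-fold, or 4.04 ± 0.20 on the log2 scale (adjusted p = 2.74e-15).

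Tap2, the partner chain, stood at 4.68 and 3.69 CPM in control sgRNA cells and at 8.28 and 8.37 CPM with IFN-γ, and it rose 2.0-fold (adjusted p = 0.00253). In untreated cells it went from 7.92 and 7.62 CPM to 24.5 and 25.4 CPM, a rise of 3.21-fold (adjusted p = 4.26e-12). The groups did not overlap in either experiment.

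Tapbp, the tapasin gene, had 25.8 and 26.5 CPM in control sgRNA cells and 48.6 and 46.7 CPM with IFN-γ (1.82-fold, adjusted p = 2.53e-05). In untreated cells it had 46.0 and 44.5 CPM, and 115 and 122 CPM with IFN-γ (2.62-fold, adjusted p = 3.76e-17). The IFN-γ libraries were the higher ones throughout.

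Erap1, the trimming aminopeptidase, had 23.7 and 23.5 CPM in control sgRNA cells and 33.2 and 33.0 CPM with IFN-γ (1.40-fold, adjusted p = 0.00157). In untreated cells it went from 34.7 and 35.8 CPM to 50.6 and 57.6 CPM (1.54-fold, adjusted p = 4.73e-07). The groups stood apart in both experiments.

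B2m, the light chain, behaved differently from the loading genes in size. Control sgRNA cells had 58.6 and 66.5 CPM and the same cells with IFN-γ 61.1 and 61.4 CPM, so the ranges overlapped, with a log2 difference of -0.03 ± 0.06 and a 95% interval from -0.16 to 0.10. Untreated cells had 100.2 and 102 CPM and IFN-γ cells 117 and 119 CPM, and B2m rose 1.17-fold (adjusted p = 7.39e-05). In TPM this B2m rise was not seen, with a log2 difference of -0.00054 by limma on log2(TPM + 1).

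Nlrc5, the class I transactivator, was at the limit of detection without IFN-γ. The control sgRNA libraries held 0 and 1 counts and the IFN-γ libraries 3 and 6, a ratio of 7.78 with a counting interval of 1.08 to 341 (95%, exact binomial, counting error only), and the change was not called (adjusted p = 0.169). Both untreated libraries held 0 counts, which allows up to 0.192 and 0.187 CPM, and the IFN-γ libraries held 23 and 22. Against a floor of 3 counts per library, Nlrc5 was at least 7.98-fold higher with IFN-γ in untreated cells (adjusted p = 1.94e-06).

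The second question was whether Uba1 depletion moved the same genes. Without IFN-γ, B2m, Tap1, Tap2, Tapbp and Erap1 were higher in sgUba1 cells than in control sgRNA cells, by 1.35-fold to 2.35-fold. With IFN-γ all 6 members were higher, by 1.60-fold to 8.14-fold. The members called were 5 of 6 without IFN-γ, where 29.7% of genes tested were called, and 6 of 6 with IFN-γ, where 39.4% were called. Their median log2 fold change was 0.54 and 1.07, beside -0.0016 and 0.0078 over all genes. Each line was grown from single cells, so line and depletion cannot be told apart. B2m in sgUba1 cells (85.4 and 83.5 CPM) lay above control sgRNA cells but below untreated cells of the TAK-243 experiment (100.2 and 102 CPM). Tapbp did the same, Erap1 and Tap2 overlapped those untreated cells, and Tap1 was higher than in them. With IFN-γ, sgUba1 cells stood below the IFN-γ cells of that experiment for every member except Erap1, which stood above. These differences across experiments were not tested.

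B2m had 85.4 and 83.5 CPM in sgUba1 cells against the 58.6 and 66.5 CPM of control cells, a log2 change of 0.43 ± 0.06 (adjusted p = 0.000217). With IFN-γ the sgUba1 libraries had 102 and 99.6 CPM against 61.1 and 61.4 CPM, a log2 change of 0.72 ± 0.06 (adjusted p = 3.69e-06). The sgUba1 libraries were the higher ones in both settings.

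Tap1 stood at 1.47 CPM in both sgUba1 libraries, 2.35-fold above control cells (adjusted p = 0.00499). With IFN-γ it stood at 10.7 and 10.5 CPM, 3.90-fold above control cells with IFN-γ (adjusted p = 3.88e-06). Among the 4 loading genes, Tap1 had the highest fold in both settings.

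Tap2 had 8.63 and 7.70 CPM in sgUba1 cells and 17 and 17.6 CPM with IFN-γ. These were 1.96-fold and 2.08-fold above the matched controls (adjusted p = 0.000163 and 1.33e-05). The level in sgUba1 cells without IFN-γ was close to the 8.28 and 8.37 CPM of control cells with IFN-γ, a pair of groups whose ranges overlapped.

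Tapbp had 38.3 and 36.0 CPM in sgUba1 cells and 75.1 and 77.6 CPM with IFN-γ, 1.42-fold and 1.60-fold above the matched controls (adjusted p = 9.01e-05 and 3.69e-06). Erap1 had 35.1 and 34.9 CPM in sgUba1 cells and 71.0 and 68.7 CPM with IFN-γ, 1.49-fold and 2.11-fold above the matched controls (adjusted p = 3.14e-05 and 1.36e-07). For both genes all sgUba1 libraries stood above the controls of the same IFN-γ setting.

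Nlrc5 held 0 and 1 counts in sgUba1 cells, as in control cells, and 38 and 43 counts with IFN-γ. Without IFN-γ no difference was detectable at this depth. With IFN-γ the ratio to control cells was 8.31, with a counting interval of 4.17 to 18.8 (adjusted p = 0.000525).

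IFN-γ raised all 6 members in sgUba1 cells (2.85% of genes tested were called in either direction), with a median log2 fold change of 1.06 beside -0.0040 over all genes. Tap1 rose 7.20-fold (adjusted p = 3.96e-06), Tap2 2.12-fold, Tapbp 2.06-fold and Erap1 1.99-fold. The B2m rise of 1.19-fold (adjusted p = 0.0448) lost its call when any 1 of 6 of the 8 libraries was left out. For Nlrc5 the ratio was 79.4 with a counting interval of 13.9 to 3175 (adjusted p = 0.00187), and the call was lost without sgUba1 replicate 1.

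Whether IFN-γ did more in sgUba1 than in control cells was tested as an interaction. Among the members 1 of 6 was called, Erap1, and 4.64% of all genes tested were called. Its IFN-γ response was larger in sgUba1 cells by 0.51 ± 0.08 on the log2 scale (adjusted p = 0.0144). With 1 library left out, the adjusted p of Erap1 ran from 0.000562 to 0.112 and the call was lost in 5 of 8 cases. The difference was 0.73 ± 0.33 for Tap1 (adjusted p = 0.226), 0.28 ± 0.08 for B2m (0.0689), 0.17 ± 0.08 for Tapbp (0.227) and 0.08 ± 0.16 for Tap2 (0.812), none of which passed. Nlrc5 was not called either, with 0 and 1 counts in control sgRNA cells and 3 and 6 with IFN-γ. B2m was called without control sgRNA replicate 1 (0.37, adjusted p = 0.00222) or replicate 2 (0.19, adjusted p = 0.0418).

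TAK-243 gave another picture in cells than the sgRNA. Without IFN-γ it raised B2m and Tapbp and lowered Erap1. With IFN-γ it raised B2m and Nlrc5 and lowered Erap1 and Tap2. The drug changed much of the transcriptome: 66.3% of genes tested were called without IFN-γ and 68.2% with it, beside 3 of 6 and 4 of 6 members. The members' median log2 fold change was 0.32 and -0.011, beside 0.027 and 0.023 over all genes.

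B2m had 132 CPM in both TAK-243 libraries against 100.2 and 102 CPM in untreated cells, a log2 change of 0.38 ± 0.04 (adjusted p = 1.46e-09). With IFN-γ it had 164 and 171 CPM with the drug against 117 and 119 CPM without, a log2 change of 0.50 ± 0.04 (adjusted p = 1.14e-12). The libraries with both agents were the highest for B2m among the 16 cell libraries.

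Erap1 had 13.7 and 15.0 CPM with TAK-243 against 34.7 and 35.8 CPM in untreated cells, and fell by 1.30 on the log2 scale (adjusted p = 5.34e-13). With IFN-γ it had 33.1 and 31.0 CPM with the drug against 50.6 and 57.6 CPM without, and fell by 0.76 (adjusted p = 1.18e-09). The drug libraries were the lower ones in both settings, below every library without drug of the same experiment.

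Tap2 had 8.10 and 5.94 CPM with TAK-243 alone, on both sides of the untreated 7.92 and 7.62 CPM (log2 difference -0.12 ± 0.15, adjusted p = 0.485). Without TAK-243 replicate 1 it was called lower (-0.45, adjusted p = 0.0361). With IFN-γ it had 20.3 and 20.2 CPM with the drug against 24.5 and 25.4 CPM, and fell by 0.30 (adjusted p = 0.0101). This call was lost by DESeq2 (adjusted p = 0.174) and without IFN-γ replicate 2, and in TPM the log2 difference was 0.07, in the other direction.

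Tapbp had 57.1 and 50.7 CPM with TAK-243 against 46.0 and 44.5 CPM (1.2-fold, adjusted p = 0.000535), a call that was lost without TAK-243 replicate 1. With IFN-γ it had 120.5 and 116 CPM against 115 and 122 CPM, with a log2 difference of -0.01 ± 0.05 and a 95% interval from -0.11 to 0.09. The ranges overlapped only in the IFN-γ setting.

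Tap1 had 1.72 and 0.963 CPM with TAK-243 alone (log2 difference 0.50 ± 0.34, adjusted p = 0.2) and 15.1 and 17 CPM with both agents against 16.2 and 16.3 CPM with IFN-γ (-0.01 ± 0.12, 95% interval -0.27 to 0.24). Neither difference passed. Nlrc5 held 1 and 2 counts with TAK-243 alone and 42 and 54 with both agents, a ratio to IFN-γ alone of 2.11 with a counting interval of 1.47 to 3.08 (adjusted p = 0.00772). That call was lost by DESeq2 (adjusted p = 0.141), without IFN-γ replicate 2 and without the second library of both agents.

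IFN-γ raised all 6 members in TAK-243 cells as well, where 10.5% of genes tested were called, with a median log2 fold change of 1.33 beside -0.00070 over all genes. Tap1 rose 11.5-fold (adjusted p = 6.9e-14), Tap2 2.84-fold, Tapbp 2.18-fold, Erap1 2.24-fold and B2m 1.27-fold. For Nlrc5 the ratio was 30.5 with a counting interval of 10.1 to 150.4. In the interaction 1 of 6 members was called (2.38% of genes tested), again Erap1: its IFN-γ response was larger with the drug by 0.54 ± 0.13 (adjusted p = 0.0149), from a lower start. The call was lost in 4 of the 8 cases with 1 library left out. For Tapbp the interaction was -0.27 ± 0.08 (adjusted p = 0.0697), and it was called without TAK-243 replicate 2 (-0.30, adjusted p = 0.0423).

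**Figure D2:**
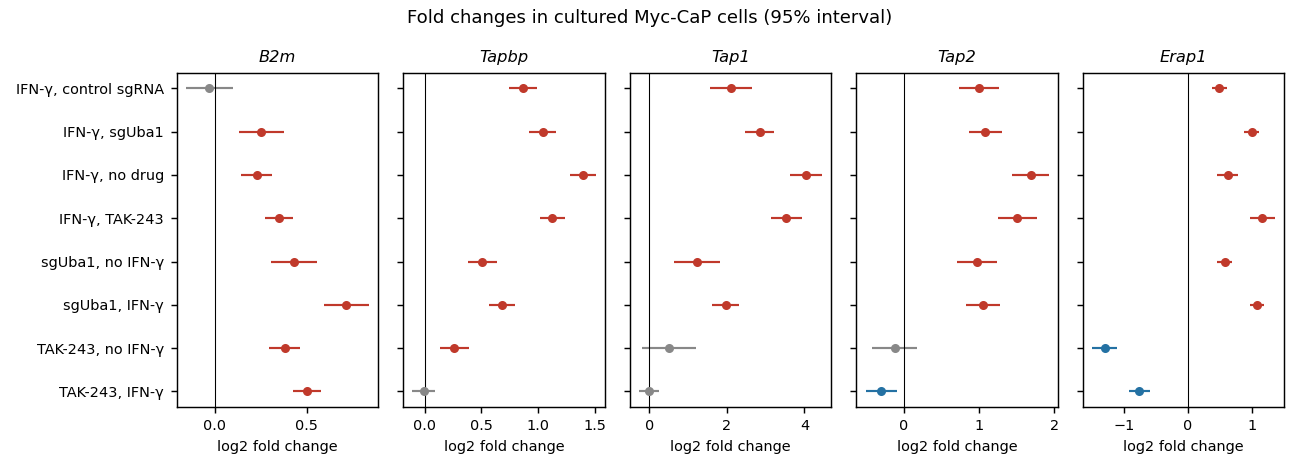
Log2 fold changes (points) with 95% intervals (bars) of 5 members in 8 comparisons of cultured Myc-CaP cells. Red marks called higher, blue called lower and grey not called. Nlrc5 is not drawn, since some of its groups hold 0 to 3 counts. Erap1 lies right of 0 with sgUba1 (0.57 and 1.08) and left of 0 with TAK-243 (-1.30 and -0.76).

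The drug and the sgRNA were set against each other by the difference between their effects, each against its own control. With IFN-γ the TAK-243 effect was lower than the sgUba1 effect for 6 of 6 members (56.7% of 15708 genes were called in either direction and 30.7% as lower). The difference was -1.99 ± 0.20 for Tap1 (adjusted p = 5.43e-08), -1.85 ± 0.09 for Erap1 (1.89e-12), -1.37 ± 0.15 for Tap2 (1.7e-07), -0.70 ± 0.08 for Tapbp (2.27e-07) and -0.23 ± 0.07 for B2m (0.00877), all on the log2 scale. For Nlrc5 it was -1.96 ± 0.62 (adjusted p = 0.00974), a call lost without control sgRNA with IFN-γ replicate 1, and the difference was 0.18, in the other direction, on log2(TPM + 1), where Nlrc5 levels in cells lie below the pseudocount. By DESeq2 the calls of B2m (adjusted p = 0.0535) and Nlrc5 (adjusted p = 0.0652) were lost.

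Without IFN-γ the drug effect was lower for 3 of 6 members (55.3% of genes called, 30.2% as lower): Erap1 by -1.89 ± 0.10 (adjusted p = 9.5e-12), Tap2 by -1.11 ± 0.20 (6.55e-05) and Tapbp by -0.27 ± 0.09 (0.0157). The Tapbp call was lost without TAK-243 replicate 2 and without sgUba1 replicate 1. For B2m the difference was -0.07 ± 0.07 (95% interval -0.22 to 0.08) and for Tap1 -0.75 ± 0.44 (-1.67 to 0.18). B2m was called lower without control sgRNA replicate 2 (-0.17, adjusted p = 0.0258), and Tap1 without that library (-1.24, adjusted p = 0.046) or without TAK-243 replicate 1 (-1.29, adjusted p = 0.0393). The 2 experiments also differed in depth and baseline, with B2m at 100.2 and 102 CPM in untreated cells and at 58.6 and 66.5 CPM in control sgRNA cells, and the experiment cannot be told apart from the kind of control.

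The immunoproteasome genes Psmb8, Psmb9 and Psmb10 and the proteasome activator genes Psme1 and Psme2, which shape the peptides that TAP carries, were taken as a list of 5. IFN-γ raised 4 of these 5 in control sgRNA cells, where 3.88% of genes tested were called. It raised 5 of 5 in sgUba1 cells (2.85% called), untreated cells (29.0%) and TAK-243 cells (10.5%). With sgUba1, 2 of 5 were higher without IFN-γ and 5 of 5 with it. With TAK-243, 1 of 5 was higher and 2 lower without IFN-γ, and 4 of 5 were lower with it. Over all genes tested, 29.7% and 39.4% were called with sgUba1, without and with IFN-γ, and 66.3% and 68.2% with TAK-243, and the counts of this and the following lists stand against those shares.

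Psmb9, the neighbour of Tap1, held 0 counts in both control sgRNA libraries, 27 and 35 with IFN-γ, 9 and 8 in sgUba1 cells and 216 and 197 in sgUba1 cells with IFN-γ. Against the floor of 3 counts per library it was at least 8.87-fold higher with IFN-γ and at least 2.30-fold higher with sgUba1. With both agents of the TAK-243 experiment it held 44 and 43 counts against 104 and 121 with IFN-γ alone, and fell by 1.38 ± 0.28 on the log2 scale (adjusted p = 5.72e-05).

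Other loading genes had 9 of 10 rows. Tapbpl, which encodes the tapasin-like editor TAPBPR, was the gene of that list nearest to Tap2 over the groups: it rose with IFN-γ in untreated cells by 1.29 ± 0.15 and in sgUba1 cells by 1.12 ± 0.10, was higher with sgUba1 under IFN-γ by 1.35 ± 0.11, and fell by 0.42 with TAK-243 under IFN-γ (adjusted p = 0.00703). The chaperone genes moved little with sgUba1, with Canx (calnexin) higher by 0.19 and Calr (calreticulin) lower, at -0.18, under IFN-γ. With TAK-243, Canx rose by 0.74 and the peptidase gene Thop1 fell by 1.23 under IFN-γ. In all, sgUba1 with IFN-γ gave 3 higher and 3 lower of 9, and TAK-243 with IFN-γ 5 higher and 3 lower of 9, where 39.4% and 68.2% of all genes were called.

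Of 12 interferon signal genes, 7 were higher and 0 lower with sgUba1 (29.7% of all genes called), and 6 higher and 1 lower with sgUba1 under IFN-γ (39.4%), among them the receptor gene Ifngr1 (0.46) and the kinase gene Jak2 (0.48). TAK-243 gave 5 higher and 4 lower alone, and 5 higher and 5 lower under IFN-γ (66.3% and 68.2% of all genes called), where the feedback inhibitor gene Socs1 (2.36) and Jak1 (1.49) were higher and Jak2 (-0.52) was lower.

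Irf1, an activator of class I loading genes, was higher under both agents with IFN-γ. It rose by 0.79 ± 0.06 with sgUba1, from 37.6 and 38.1 CPM to 64.1 and 66.8 CPM. With TAK-243 it rose by 0.86 ± 0.05, from 74.9 and 80.8 CPM to 139 and 144 CPM. Of 16 class I transcription genes, 1 was higher and 3 lower with sgUba1 under IFN-γ, and 7 higher and 3 lower with TAK-243 under IFN-γ, where 39.4% and 68.2% of all genes were called. The counts of this list were not above those shares.

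**Figure D3:**
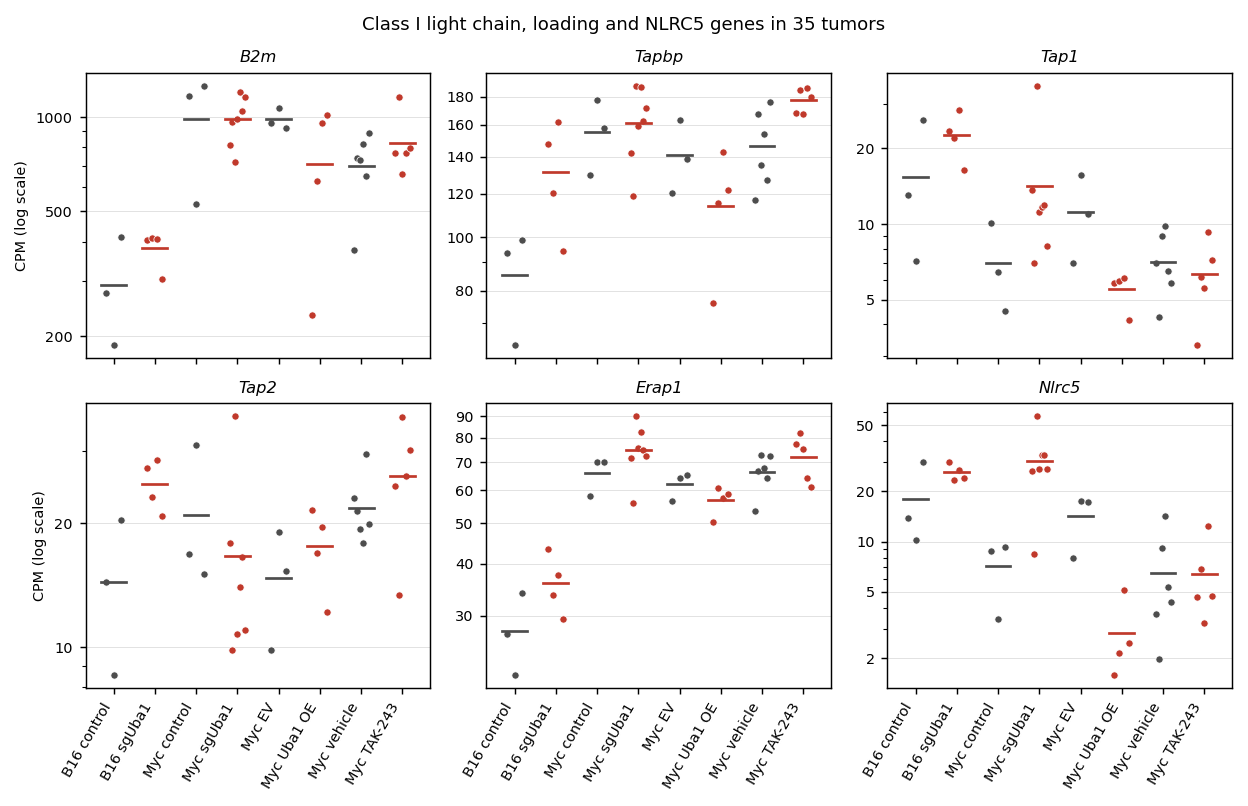
CPM (log scale) of the 6 members in 35 tumors. Points are tumors, lines are group means, grey groups are controls and red groups carry sgUba1, Uba1 OE or TAK-243. Nlrc5 in Uba1 OE tumors (1.59 to 5.14 CPM) lies below all 3 empty vector tumors (7.98 to 17.6 CPM), and 6 of the 7 Myc-CaP sgUba1 tumors lie above 26 CPM.

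In tumors no member passed the test in any of the 4 comparisons by edgeR's quasi-likelihood test. By DESeq2 0 of 6 passed in B16-BL6 tumors and in TAK-243 tumors, but Nlrc5 passed for Myc-CaP sgUba1, and Nlrc5 and Tap1 passed for Uba1 OE. The share of all genes called by DESeq2 was not computed. The Nlrc5 and Tap1 means differed by about 2-fold or more in the Myc-CaP sgUba1 and Uba1 OE comparisons. The spread between tumors of a group was much wider than between cell libraries. Values below are therefore differences with their errors, and each comparison's share of genes called by edgeR is given beside the 0 members called by it. The 5 immunoproteasome and activator genes had 0 calls in all 4 comparisons as well. Statements that tumor groups did not overlap are descriptions too, since the share of all genes without overlap was not computed.

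In B16-BL6 tumors all 6 members had higher means with sgUba1, with log2 differences from 0.38 to 0.79 and a median of 0.55 beside 0.012 over all genes, and 0 of 6 were called (0.724% of 17539 genes were; 2861 genes had an unadjusted p under 0.05). Tap2 had 14.4, 8.56 and 20.4 CPM in controls and 27.4, 23.2, 28.5 and 20.9 CPM with sgUba1. All sgUba1 tumors stood above all controls, with a log2 difference of 0.79 ± 0.24 (adjusted p = 0.176).

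Tapbp had 93.5, 63.8 and 98.9 CPM in B16-BL6 controls and 148, 120.5, 162 and 94.4 CPM with sgUba1 (0.62 ± 0.19, adjusted p = 0.181). Nlrc5 had 13.8, 10.3 and 29.9 CPM in controls and 30.2, 23.4, 27.0 and 24.1 CPM with sgUba1 (0.54 ± 0.30, adjusted p = 0.39). For Nlrc5 the control tumor numbered 4 stood among the sgUba1 tumors, and for Tapbp the sgUba1 tumor numbered 4 stood among the controls.

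Tap1 had 13.1, 7.17 and 25.9 CPM in B16-BL6 controls and 23.3, 22.1, 28.3 and 16.4 CPM with sgUba1 (0.55 ± 0.35). B2m had 275, 188 and 414 CPM in controls and 407, 412, 409 and 304 CPM with sgUba1 (0.39 ± 0.22). Erap1 had 27.2, 21.7 and 34.0 CPM in controls and 43.4, 33.6, 37.6 and 29.5 CPM with sgUba1 (0.38 ± 0.16). The groups overlapped for all 3 genes, and control tumor 4 was the highest control for each.

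Calls in B16-BL6 depended on single tumors. Without control tumor 4, Nlrc5 (1.12, adjusted p = 0.0141) and Tap2 (1.12, adjusted p = 0.0465) were called, and without sgUba1 tumor 4, Tapbp was called (0.74, adjusted p = 0.0401). The 4 leukocyte markers (Ptprc, Cd53, Laptm5 and Coro1a, all with rows) summed to 14.1 to 28.3 TPM in controls, where tumor 4 was the highest, and to 28.0 to 34.7 TPM with sgUba1. The ranges overlapped narrowly, and none of these markers was called by edgeR (adjusted p from 0.162 to 0.25). The 9 T and NK cell markers summed to 5.73 to 7.58 TPM and 7.67 to 9.78 TPM, with Ifng at 0 in controls. Macrophage marker sums overlapped (75.6 to 135 TPM and 122 to 168 TPM), and dendritic cell sums were lower with sgUba1 without overlap (8.65 to 10.96 TPM and 7.50 to 8.53 TPM). Single dendritic markers did not follow that sum. By edgeR only Zbtb46 was lower with sgUba1 (log2 difference -0.21), and Itgax (0.98), Flt3 (0.23) and Xcr1 (0.12) were higher, with none called. Their part in the result was not tested.

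In Myc-CaP tumors, sgUba1 was set against the control sgRNA with 7 tumors against 3, and 0 of 6 members were called (3.04% of 16202 genes were; 3835 had an unadjusted p under 0.05). Nlrc5 had 8.76, 3.42 and 9.25 CPM in controls and, with sgUba1, a lowest value of 8.43, a median of 27.4 and a highest value of 56.5 CPM. The sgUba1 tumors stood above all controls except tumor 2 at 8.43 CPM. The log2 difference was 2.08 ± 0.51, or 4.22-fold, with an adjusted p of 0.0556, and it passed without sgUba1 tumor 2 (2.23, adjusted p = 0.0229), by DESeq2 (adjusted p = 0.000443) and in a fit of 17 Myc-CaP tumors (adjusted p = 0.0207).

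Nlrc5 did not separate the sgUba1 tumors by their Uba1 RNA: tumors 1 to 3 had 26.5, 8.43 and 56.5 CPM, and tumors 4 to 7, which kept Uba1 RNA, had 27.4, 33.2, 32.9 and 27.2 CPM. The ranges overlapped, with the tumors that kept Uba1 RNA inside the range of the others. With only tumors 1 to 3 the log2 difference from controls was 2.07 ± 0.70 (adjusted p = 0.192).

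Tap1 had 10.1, 6.44 and 4.50 CPM in Myc-CaP controls and 7.0 (lowest), 11.7 (median) and 35.3 CPM (highest) with sgUba1, with a log2 difference of 1.01 ± 0.50 (adjusted p = 0.246). With only tumors 1 to 3 it was 1.40 ± 0.60. Tumor 3 was the highest for Tap1, Tap2 and Nlrc5, and the groups overlapped.

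Tap2 had 16.8, 31.0 and 15.0 CPM in these controls and 9.86, 14.0 and 36.5 CPM (lowest, median, highest) with sgUba1 (-0.33 ± 0.40). B2m had 1165, 529 and 1255 CPM in controls and 720.5, 982 and 1199.7 CPM with sgUba1, a log2 difference within 0.001 of 0 with an SE of 0.25 and a 95% interval from -0.55 to 0.55. Neither gene stood apart between the groups.

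Tapbp in Myc-CaP controls had 129, 178 and 158 CPM, and 119, 163 and 188 CPM (lowest, median, highest) with sgUba1 (0.06 ± 0.15). Erap1 had 58.2, 69.9 and 70.0 CPM in controls and 56.0, 74.7 and 90.1 CPM with sgUba1 (0.18 ± 0.14). The ranges overlapped for both. With only tumors 1 to 3 the log2 differences were -0.25 for B2m, 0.03 for Tap2, -0.06 for Tapbp and 0.13 for Erap1, and none passed.

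Leukocyte markers summed to 32.6 to 45.4 TPM in Myc-CaP controls and 50.9 to 96.0 TPM with sgUba1, with no overlap. T and NK cell markers summed to 8.56 to 10.7 TPM and 11.4 to 24.2 TPM, again with no overlap, although Ifng was at 0 in the sgUba1 tumors and not in controls. Of the 6 macrophage markers, 3 were called higher, Adgre1 (1.15, adjusted p = 0.0276), Cd68 (0.83, adjusted p = 0.03) and C1qa (0.82, adjusted p = 0.03), and the 6 summed to 153 to 271 TPM in controls and 262 to 427 TPM with sgUba1. Of the 4 leukocyte markers 1 was called higher. Dendritic cell sums did not overlap (3.55 to 3.82 TPM and 3.92 to 7.78 TPM), with 0 of 4 markers called. The lowest sgUba1 tumor on both sums was tumor 2 and the highest tumor 3, as for Nlrc5. In cultured cells Cd53 and Laptm5 were at 0 in all 8 groups and the 4 leukocyte markers summed to at most 0.686 TPM, so the cell results above were measured with the defining leukocyte markers at or near 0. The T and NK cell markers, however, summed to 1.71 to 7.13 TPM in cultured cells, so their tumor sums do not measure lymphocytes alone. In the tumors, their part in the result was not tested.

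**Figure D4:**
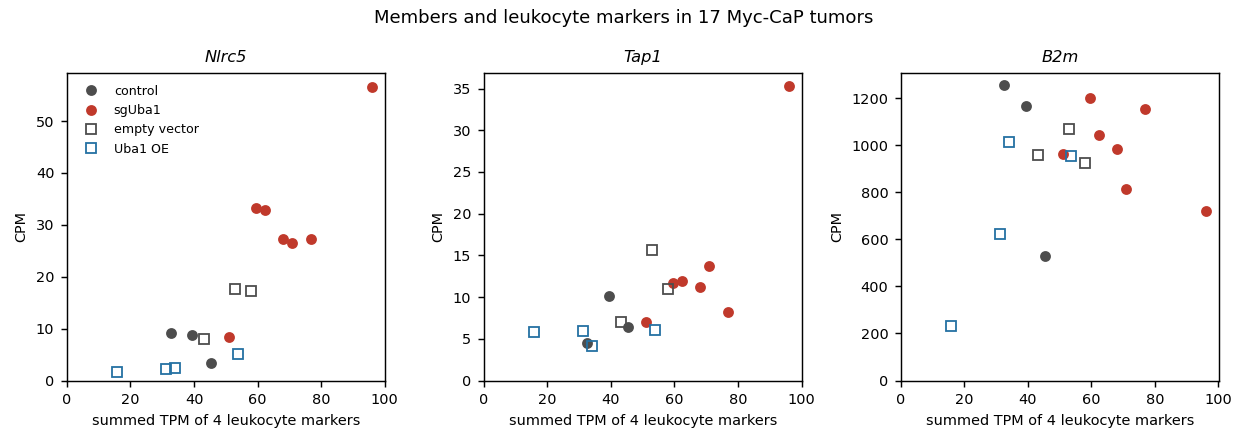
CPM of Nlrc5, Tap1 and B2m against the summed TPM of 4 leukocyte markers in 17 Myc-CaP tumors, with 1 point per tumor. Filled circles are sgRNA tumors and open squares vector tumors. The sgUba1 tumor with 96.0 TPM of markers had 56.5 CPM of Nlrc5 and 35.3 CPM of Tap1, the Uba1 OE tumor with 15.7 TPM had 1.59 CPM of Nlrc5, and B2m shows no such order at the high end.

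Uba1 OE tumors were compared with empty vector tumors, 4 against 3. The members' means were lower for 5 of 6, with a median log2 difference of -0.39 beside 0.0033 over all genes, and 0 of 6 were called (0.0269% of 14853 genes were, 4 genes; 2698 had an unadjusted p under 0.05). Nlrc5 had 7.98, 17.6 and 17.2 CPM with empty vector and 1.59, 2.14, 5.14 and 2.46 CPM with Uba1 OE. All OE tumors stood below all empty vector tumors, with a log2 difference of -2.31 ± 0.42 (adjusted p = 0.122), which passed by DESeq2 (adjusted p = 3.48e-05) and without OE tumor 1 (-2.10, adjusted p = 0.0277).

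Tap1 had 7.0, 15.6 and 11.0 CPM with empty vector and 5.85, 5.95, 6.11 and 4.18 CPM with Uba1 OE. The OE tumors were again the lower ones without overlap, with a log2 difference of -1.02 ± 0.27 (adjusted p = 0.147; 0.0315 by DESeq2). Tap2, the partner chain, had 9.84, 19.0 and 15.3 CPM with empty vector and 21.6, 17, 19.6 and 12.2 CPM with OE (0.26 ± 0.26). Its groups overlapped, and the difference between the Tap1 and Tap2 differences was not tested.

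B2m had 961, 1070.3 and 925 CPM with empty vector and 234, 625, 956 and 1012 CPM with Uba1 OE (-0.48 ± 0.41). Tapbp had 120.4, 163 and 139 CPM with empty vector and 76.0, 116, 142 and 122 CPM with OE (-0.30 ± 0.20). Erap1 had 56.5, 64.0 and 65.2 CPM with empty vector and 50.3, 60.8, 57.5 and 58.7 CPM with OE (-0.12 ± 0.10). OE tumor 1 was the lowest tumor for these 3 genes, and the groups overlapped.

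That tumor also had the lowest sum of leukocyte markers, 15.7 TPM, in an OE range of 15.7 to 53.7 TPM against 43.2 to 57.8 TPM with empty vector. The T and NK cell sums did not overlap, at 4.72 to 8.05 TPM with OE and 13.1 to 19.4 TPM with empty vector, with Ifng at 0 in both groups and Nkg7 at 0 with OE. The OE range overlapped that of cultured Myc-CaP cells for the same markers (1.71 to 7.13 TPM). Macrophage sums (67.6 to 213 TPM and 211 to 251 TPM) overlapped, and dendritic cell sums did not (1.40 to 3.19 TPM and 3.50 to 6.29 TPM). Their part in the result was not tested.

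TAK-243 given to mice left 0 of 6 members called in Myc-CaP tumors (0.145% of 17299 genes were called; 2587 had an unadjusted p under 0.05). Tapbp came nearest: vehicle tumors had 117 (lowest), 145 (median) and 176 CPM (highest) and TAK-243 tumors 168, 185, 167, 186 and 179.8 CPM, with a log2 difference of 0.28 ± 0.11 (adjusted p = 0.254). Of the 5 TAK-243 tumors, 2 lay within the vehicle range and 3 above it.

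Nlrc5 had 1.97, 4.83 and 14.2 CPM (lowest, median, highest) with vehicle and 4.68, 6.88, 3.27, 12.5 and 4.73 CPM with TAK-243, with a log2 difference of -0.01 ± 0.46 and a 95% interval from -1.01 to 0.997. Tap1 had 4.27, 6.78 and 9.82 CPM with vehicle and 3.32, 6.15, 5.55, 9.32 and 7.22 CPM with TAK-243 (-0.17 ± 0.26). These ranges overlapped for both genes, and the interval for Nlrc5 reached about 1 log2 unit to either side.

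B2m had 377, 734 and 888 CPM (lowest, median, highest) with vehicle and 769, 1156, 657, 766 and 794 CPM with TAK-243 (0.24 ± 0.20). Tap2 had 17.9, 20.7 and 29.4 CPM with vehicle and 24.7, 13.4, 36.2, 26.1 and 30.2 CPM with TAK-243 (0.26 ± 0.21). Erap1, which fell with the drug in culture, had 53.6, 67.2 and 72.9 CPM with vehicle and 77.5, 82.4, 75.4, 64.2 and 61.0 CPM with TAK-243 (0.12 ± 0.10, 95% interval -0.10 to 0.34). Leukocyte markers summed to 20.3 to 36.6 TPM with vehicle and 28.1 to 55.5 TPM with TAK-243, and macrophage markers to 105 to 153 TPM and 115 to 306 TPM, and both pairs of ranges overlapped.

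The genes whose group means of log2(TPM + 1) were most like each member's over the 16 groups were sought among 17851 genes. For Tap1 they were the interferon-inducible GTPase genes Gbp2 (r = 0.98), Irgm2 (0.98) and Igtp (0.96). Tap2 was followed most closely by Psmb8 (0.92), Parp14 (0.91) and Tapbpl (0.90), and Tapbp by Parp14 (0.94), Psmb8 (0.93) and Uba7 (0.93). Nlrc5 was nearest to Trim30d (0.98), Sdsl (0.97) and Papss2 (0.97), Erap1 to Ndufb11 (0.95), Dexi (0.92) and Ifi35 (0.92), and B2m to Fbln2, Adgrf5 and Fam214a (all 0.99). These are descriptions over 16 group means that mix tumors, cells and both lines, so genes that differ between tumors and cells score high.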

How the data were processed

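The authors deposited a table of expected counts and one of TPM for 40077 genes in all 51 libraries. The submitters' processing notes name kallisto and the mm10 build, and the version and the strand setting are not given in the sources used here. The labels describe poly-A capture, whereas the study's methods name a ribosomal RNA digestion kit, and which was used is not settled here. Expected counts were rounded to whole numbers, genes with low counts were removed by filterByExpr, and groups were compared with edgeR 4.0.16 (quasi-likelihood test, TMM factors) in R 4.3.3, in 1 fit for each of the 4 tumor comparisons and for each cell experiment. The difference between the drug and sgRNA effects came from a fit over all cell groups. P-values were adjusted by Benjamini-Hochberg over all genes tested, and adjusted p under 0.05 was called. CPM used TMM-scaled library sizes. TPM was used for levels and summed markers.

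The scripts were tested on simulated data. DESeq2 1.42.0, limma 3.58.1 (voom, and trend on log2(TPM + 1)), RLE factors, no filter, a replicate block and leaving out each library were tried as alternatives, and the fit without the 4 Myc-CaP tumors that kept Uba1 RNA was added after seeing the data. The members and gene lists were chosen with earlier results of these data known. All members with a row are named. From each pathway list at most 3 called genes in each direction are named, by size of change, and for likeness the 3 genes with the highest r per member. Intervals on counts and the floor of 3 counts per library cover counting error only. Replicates differed beyond sampling noise in all 75 pairs within groups, and 0 pairs were identical. A gene of the interferon signal list is not reported by name here.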

Additional observations from a re-analysis of the deposited data

Results flagged for a closer look

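In groups of 4 to 10 tumors, a sample was singled out where its gap to the nearest other tumor was large against the range of its group (Dixon's criterion). This held in 5 of the 30 groups of values tested, and chance gives about 1 in 20. The 30 are the members measured in the same tumors and are not independent, so no excess over chance can be read from this count. B2m was low in B16-BL6 sgUba1 tumor 4, at 304 CPM against 407 to 412 CPM in the other 3. B2m was high in TAK-243 tumor 2, at 1156 CPM against at most 794 CPM in the others. Tap1 was low in Uba1 OE tumor 4, at 4.18 CPM, where the next tumor had 5.85 CPM. Myc-CaP sgUba1 tumor 3 was high for Tap1 (35.3 CPM, next 13.7 CPM) and for Tap2 (36.5 CPM, next 17.9 CPM), and it also had the highest summed leukocyte markers, 96.0 TPM.

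Differences between effects passed their own test in the following cases. The IFN-γ response of Erap1 was larger in sgUba1 than in control sgRNA cells by 0.51 on the log2 scale, and larger with TAK-243 than without by 0.54. The TAK-243 effect under IFN-γ was lower than the sgUba1 effect for B2m (-0.23), Tap1 (-1.99), Tap2 (-1.37), Tapbp (-0.70), Erap1 (-1.85) and Nlrc5 (-1.96). Without IFN-γ it was lower for Tap2 (-1.11), Tapbp (-0.27) and Erap1 (-1.89).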

How the results depend on the processing

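Replicate numbers did not pair the samples: the correlations of same-numbered tumors' deviations ran from -0.18 to 0.31 and those of cell libraries from -0.02 to 0.07. The replicate block left the number of called members as it was in all 16 comparisons (0 in each of the 4 tumor comparisons, and 4, 6, 5, 6, 1, 6, 6, 3, 4, 1, 6 and 3 in the cell comparisons). Other settings moved it. By DESeq2, 1 member was called for sgUba1 in Myc-CaP tumors, 2 for Uba1 OE and 2 for TAK-243 with IFN-γ, and 1 for sgUba1 in the fit of 17 Myc-CaP tumors. Without a filter on low counts, 2 members were called in each interaction with IFN-γ. By limma-trend on log2(TPM + 1), 1 was called for IFN-γ in control sgRNA cells, 2 for IFN-γ in sgUba1 cells, 3 for sgUba1 without IFN-γ, and 0 in each interaction. The cause was not tested. The share of all genes called under these other settings was not computed. The member counts here, and those with 1 library left out below, therefore have no background beside them.

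With 1 library left out, the called members ran from 0 to 2 in B16-BL6 tumors, 0 to 1 for Myc-CaP sgUba1, 0 to 1 for Uba1 OE and 0 to 0 for TAK-243 in tumors. In cells they ran from 4 to 4 for IFN-γ in control sgRNA cells, 4 to 6 in sgUba1 cells, 2 to 4 for TAK-243 with IFN-γ, and 0 to 2 in each interaction. For the drug effect minus the sgRNA effect they ran from 5 to 6 with IFN-γ and from 2 to 5 without. Among single gene results with 1 library left out, 823 kept direction and call, 24 changed sign, 12 gained and 23 lost the call.

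The following log2 values changed sign under another setting. For sgUba1 in Myc-CaP tumors, B2m was 0.00067 by DESeq2, 0.0016 with RLE factors, 0.069 by limma-trend and 0.083 by voom, Tap2 was 0.032 with tumors 1 to 3 only, and Tapbp was -0.055 with those tumors only and -0.063 under the replicate block. Erap1 was 0.059 for Uba1 OE by limma-trend. Nlrc5 for TAK-243 in tumors was 0.078 by limma-trend, 0.11 by voom and 0.035 under the replicate block. B2m for IFN-γ in untreated cells was -0.00054 by limma-trend. For TAK-243 with IFN-γ, Tap1 was 0.0104 with RLE factors, 0.0495 by limma-trend and 0.00092 with only the groups compared, Tap2 was 0.071 by limma-trend, and Tapbp was 0.0018 by DESeq2, 0.017 with RLE factors, 0.14 by limma-trend and 0.0057 with only the groups compared. In the TAK-243 interaction Tap2 was 0.16 and Nlrc5 0.35 by limma-trend, and Nlrc5 for the drug minus sgRNA effect with IFN-γ was 0.18 by limma-trend.

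Leaving out single libraries gave both signs for log2 differences near 0 or of few counts. For sgUba1 in Myc-CaP tumors B2m ran from -0.306 to 0.214, Tap2 from -0.645 to 0.056 and Tapbp from -0.062 to 0.159. For TAK-243 in tumors Nlrc5 ran from -0.398 to 0.372. In cells, B2m ran from -0.115 to 0.065 for IFN-γ with the control sgRNA, Nlrc5 from -2.49 to 2.27 for sgUba1 without IFN-γ, and Tap2 from -0.093 to 0.250 in the sgUba1 interaction. For TAK-243 alone Tap1 ran from -0.081 to 0.760 and Tap2 from -0.445 to 0.013, and with IFN-γ Tap1 ran from -0.121 to 0.066 and Tapbp from -0.057 to 0.028. In the TAK-243 interaction Tap1 ran from -0.777 to 0.057 and Tap2 from -0.316 to 0.136, and B2m for the drug minus sgRNA effect without IFN-γ ran from -0.170 to 0.0087. Depth limits Nlrc5 most: cell libraries without IFN-γ, or with the control sgRNA, held 0 to 6 counts.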

Other observations

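Some rows of class I-like genes were present beside the members. They were chosen after their values were seen, and their sequences are near-identical to other class I genes, so reads may have been split among them and their identity is uncertain. H2-Q5 had the highest levels of these, at 639 to 1004 TPM in empty vector tumors, 461 to 647 TPM in Uba1 OE tumors, 583 to 776 TPM in Myc-CaP control tumors and 813 to 1929 TPM in Myc-CaP sgUba1 tumors. No tumor comparison called it by edgeR's quasi-likelihood test. The log2 differences were 0.82 for Myc-CaP sgUba1 (adjusted p = 0.071) and -0.73 for Uba1 OE (0.123). They were 0.57 for B16-BL6 sgUba1 (0.348) and 0.08 for TAK-243 (0.831). In cells H2-Q5 had 192 and 249 TPM untreated, 222 and 256 TPM with IFN-γ, 313 and 323 TPM with TAK-243 and 387 and 422 TPM with both. By edgeR's quasi-likelihood test it rose with TAK-243 by 0.84 on the log2 scale (adjusted p = 1.65e-07), with IFN-γ in untreated cells by 0.45 (adjusted p = 0.00421), and differed by 0.02 between sgUba1 and control sgRNA cells under IFN-γ (adjusted p = 0.906). H2-K2 and Gm7030 rose with TAK-243 alone by 0.93 (adjusted p = 2.49e-09) and 1.08 (adjusted p = 6.23e-09), and Gm8909 by 0.79 (adjusted p = 0.000138), whereas Gm11127 was lower with TAK-243 (-0.23, adjusted p = 0.0152) and with TAK-243 under IFN-γ (-0.39, adjusted p = 0.000118). With TAK-243, 66.3% of all genes were called without IFN-γ and 68.2% with it.

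Among class I-related genes outside the classical heavy chains, 4 of 17 on the list had a row. Under IFN-γ, sgUba1 cells had higher Mr1 (1.46 on the log2 scale), Fcgrt (1.24) and Cd1d1 (1.23), which encode the presenter of vitamin B metabolites, the neonatal Fc receptor and a lipid presenter. With TAK-243 under IFN-γ, Mr1 (1.51), Cd1d1 (1.45) and H2-Bl (1.28) were higher and Fcgrt was lower (-0.44).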
